A study of Mus musculus with 2 samples.

Results

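Droplets that carried transcripts of hepatic stellate cells or fibroblasts were described in 1 library of sorted mouse liver endothelium, that of a heterozygote for the sphinx allele of Gimap5 (sph/+). A droplet was taken as a member if it held at least 5 unique molecular identifiers (UMIs, each 1 captured transcript molecule) of Dcn, Col3a1 and Colec11 together and at most 2 UMIs of the bile duct genes Krt19, Krt7 and Epcam. Droplets with under 500 detected genes, with under 1000 UMIs, or with over 15% of their UMIs from genes of the mitochondrial genome (mt-) were left out. Of 6198 sph/+ droplets within those limits, 90 were members, a share of 1.45% (95% exact Clopper-Pearson interval 1.17 to 1.78). The rule used measured counts, so the levels of Dcn, Col3a1, Colec11 and Clec4g in the members are given as a description.

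Gimap5 is a small GTPase gene known for the survival of lymphocytes, and the study compared liver endothelium of 1 adult sph/sph mouse with that of 1 adult sph/+ mouse, both on a C57BL/6 background. Both mice carried the sphinx allele, so no mouse here had only wild-type Gimap5. Live cells were sorted for CD31, the endothelial surface protein encoded by Pecam1, and against CD45, the leukocyte surface protein encoded by Ptprc, and a 10x 3' v3 library was made from each mouse. With 1 library per genotype and 1 mouse behind all members, no test was possible, and the intervals below cover counting error only.

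Stellate cells are the pericytes of the liver sinusoid. They lie in the space of Disse against the sinusoidal endothelium, store vitamin A as retinyl esters, and are known for turning into collagen-producing myofibroblasts after injury. Portal fibroblasts sit around the portal tracts and mesothelial cells cover the liver capsule, and both also make Dcn, which encodes the proteoglycan decorin, and Col3a1, a fibrillar collagen. Colec11 encodes a collectin, a soluble lectin of innate immunity, that stellate cells of the mouse liver make. None of these cell types is known for CD31.

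The deposited sph/+ matrix listed 13136 barcodes, but these held only 6745 distinct sequences, because 6391 of them (94.8%) were listed under both of 2 suffixes. The copies differed by less than sampling noise. Their chi-square per gene had a median of 0.422 over 500 pairs, where noise alone would give 1, against 2.33 over 500 pairs of different sinusoidal droplets next to each other in depth. Each sequence was therefore counted once, and is called a droplet below, since it can hold more than 1 cell or free RNA. The 90 members were deposited as 155 barcodes. For 65 members both copies met the rule, and for 25 only 1 copy did, with 5 to 7 rule UMIs against 0 to 4 in the other copy. Passing sph/+ droplets had a median of 4632 UMIs (1000 to 29508). The sph/sph library had the same structure, with 8657 distinct sequences among 16386 barcodes. Both libraries shared 17 sequences, 1 of them a member's.

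Almost every member also carried sinusoidal transcripts. Clec4g encodes a C-type lectin of liver sinusoidal endothelial cells (LSECs), and 88 of 90 members (97.8%, 92.2 to 99.7) had at least 3 Clec4g UMIs and are possible mixtures of cells. The same was true of 97.0% of all passing sph/+ droplets. Droplets with bile duct transcripts also reached a Clec4g count of 3 in this library. Among 77 droplets with at least 10 keratin and Epcam UMIs, which mark bile duct epithelium, 37 (48.1%) reached it, at a median depth of 11311 UMIs. These duct-marked droplets had a median of 1 Clec4g UMI (0 to 68), and the 86 members named below had a median of 22.5. Whether the Clec4g UMIs of duct-marked droplets came from free RNA or from an endothelial cell in the same droplet was not tested. The possible mixtures contained 2 droplets with at least 3 UMIs of mesothelial genes, and these are described apart. The other 86 are called stellate-marked droplets here, a name for the set that single droplets need not bear out. They were set against 5445 sinusoidal droplets of the same library, defined by at least 3 Clec4g UMIs and none of Dcn, Col3a1 or Colec11.

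The promoters of 3 stellate marker genes that the rule did not use, and that were higher together in the stellate-marked droplets, are shown first. Each is the 250 bases before the annotated start, from RefSeq on GRCm38.p6, read 5′ to 3′ along the gene. The bases just after that start were found in a GENCODE transcript of the gene for Ecm1, but not for Reln or Lrat. All 3 genes lie on the minus strand. Reln is at chr5:22344706-22344955, Ecm1 at chr3:95739570-95739819 and Lrat at chr3:82903975-82904224. Capitals mark each E-box, written CANNTG, which reads the same on both strands and is the motif of basic helix-loop-helix factors such as Hand2 and Tcf21.
Reln: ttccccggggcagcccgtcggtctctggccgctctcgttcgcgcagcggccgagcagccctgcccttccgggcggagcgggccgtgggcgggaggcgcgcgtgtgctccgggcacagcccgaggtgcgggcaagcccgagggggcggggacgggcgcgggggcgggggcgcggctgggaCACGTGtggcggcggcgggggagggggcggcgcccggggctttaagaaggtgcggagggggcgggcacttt
Ecm1: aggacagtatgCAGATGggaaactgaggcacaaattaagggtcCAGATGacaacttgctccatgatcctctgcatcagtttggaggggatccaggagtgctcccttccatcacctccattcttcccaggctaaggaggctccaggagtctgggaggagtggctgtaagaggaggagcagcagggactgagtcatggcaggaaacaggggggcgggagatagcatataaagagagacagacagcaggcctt
Lrat: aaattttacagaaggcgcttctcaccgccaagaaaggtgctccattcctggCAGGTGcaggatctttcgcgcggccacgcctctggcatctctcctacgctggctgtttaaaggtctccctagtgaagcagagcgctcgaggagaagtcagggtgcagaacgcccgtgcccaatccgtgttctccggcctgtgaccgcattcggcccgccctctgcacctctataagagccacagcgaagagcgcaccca
The Ecm1 window held 2 E-boxes, while Reln and Lrat held 1 each. That motif occurs in 66.2% of 32851 promoter windows. Neither the nuclear receptor sequence AGGTCA, present in 14.02% of those windows, nor the homeodomain sequence TAATTA, present in 4.84%, was found on either strand of these 3. The search describes these letters only.

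Among the rule genes, Dcn carried most members. In the 86 stellate-marked droplets Dcn ranged from 0 to 45 UMIs with a median of 5, and Colec11 from 0 to 13 with a median of 1. Col3a1 was sparse, with 25 UMIs in 17 of the 86. Over all 88 possible mixtures, 65 held both Dcn and Colec11, and 13 held all 3 genes. Pooled levels in the stellate-marked droplets, in UMIs per 1000000 UMIs (CPM, with exact 95% Poisson intervals), were 1183 for Dcn (1098 to 1272), 321 for Colec11 (277 to 369) and 41.1 for Col3a1 (26.6 to 60.7). Just inside the threshold, 28 droplets held 5 rule UMIs and had a stellate list level of 1201 CPM. Just outside it, 14 passing droplets held 4 rule UMIs and had 715 CPM, and the list was at 675 CPM with 3 rule UMIs, 645 with 2, 463 with 1 and 282 with 0.

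The stellate list, 21 marker genes that leave out those of the rule, was 7.63-fold higher in the stellate-marked droplets (7.18 to 8.09), with 2128 CPM (2014 to 2248) against 279 CPM (273 to 285) in sinusoidal droplets. All 21 genes had the higher level in the stellate-marked droplets. Of the 9 list genes that reached 50 CPM in either group, 8 were at least 2-fold higher on the log2(CPM + 1) scale and none was 2-fold lower. Across all measured genes of the same comparison 0.921% were called higher and 0.149% lower, and the median log2 ratio was -0.01. With no minimum level, 20 of 21 were at least 2-fold higher, against 4.62% of all genes called higher and 6.21% called lower, and the list's median log2 ratio was 3.59. Because the members were chosen by transcripts that stellate cells make, these counts describe the selection and test nothing.

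Ecm1 encodes a secreted matrix protein that holds latent TGF-beta inactive in mouse liver. It gave 355 UMIs in 69 of 86 stellate-marked droplets, from 0 to 26 per droplet with a median of 2.5. Its level was 584 CPM (525 to 648) in them, against 86.9 CPM (83.5 to 90.5) in sinusoidal droplets, a ratio of 6.72 (5.99 to 7.51). Reln encodes reelin, a large secreted glycoprotein known from neuronal migration and made by stellate cells in liver. Reln was held by 29 of 86 stellate-marked droplets, with at most 3 UMIs in any, and reached 64.2 CPM (45.6 to 87.7) there. In sinusoidal droplets Reln was at 1.09 CPM (0.736 to 1.56), so the ratio was 58.8 (35.6 to 98.1). The groups thus overlapped droplet by droplet for both genes, since many droplets of each group held none.

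Pericyte and receptor genes followed. Rgs5, a regulator of G-protein signalling found in pericytes, was at 326 CPM (282 to 374) in stellate-marked droplets against 18.7 CPM (17.1 to 20.4) in sinusoidal droplets. Vipr1, a receptor for vasoactive intestinal peptide, was at 283 CPM (242 to 329) in stellate-marked droplets against 33.4 CPM (31.3 to 35.6) in sinusoidal droplets. Among the sparser genes, Pdgfrb, the receptor through which PDGF drives pericytes, gave 17 UMIs in 15 stellate-marked droplets and a ratio of 69.9 (30.9 to 165). Pth1r, the parathyroid hormone receptor, gave 23 UMIs and a ratio of 19.6 (11.5 to 32.6). Desmin (Des), an intermediate filament of muscle and stellate cells, gave exactly 1 UMI in each of 20 stellate-marked droplets and a ratio of 10.9 (6.34 to 17.9). Ngfr, Tcf21, Gfap and Bmp10 gave only 1 to 4 UMIs each in the 86.

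Of the genes of vitamin A and lipid storage, 3 of 7 measured were higher in the stellate-marked droplets and none was lower. Lrat, the enzyme that esterifies retinol for storage, gave 74 UMIs in 40 stellate-marked droplets, a level of 122 CPM (95.6 to 153) against 10.5 CPM (9.33 to 11.8) in sinusoidal droplets. Rarres2, which encodes the secreted adipokine chemerin, was at 65.8 CPM against 2.87 CPM in sinusoidal droplets. The other measured genes of the retinoid and lipid list were not 2-fold apart: Plin2, which coats lipid droplets, was at 173 CPM against 170 CPM in sinusoidal droplets, and Fabp4, a fatty acid-binding protein also made by endothelium, at 1857 CPM against 1898 CPM in sinusoidal droplets.

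Secreted factors and transcription factors of stellate cells showed a wider spread. Colec10, the collectin that pairs with the Colec11 product, was at 163 CPM (132 to 198) in stellate-marked droplets against 10.3 CPM (9.16 to 11.6) in sinusoidal droplets, a ratio of 15.8 (12.4 to 19.9). Gdf2, which encodes BMP9, a ligand of endothelial ALK1, gave 30 UMIs in 21 stellate-marked droplets and a ratio of 61.7 (34.4 to 112). Angptl6, Cygb, Lhx2, Hand2 and Bmp5 had ratios between 30.4 and 42.7 on 11 to 49 UMIs each in the 86. Hgf, the hepatocyte growth factor, was the measured list gene not called: 92.1 CPM (69.6 to 120) in stellate-marked droplets against 71.6 CPM (68.5 to 74.8) in sinusoidal droplets, a ratio of 1.29 (0.968 to 1.68).

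**Figure D1:**
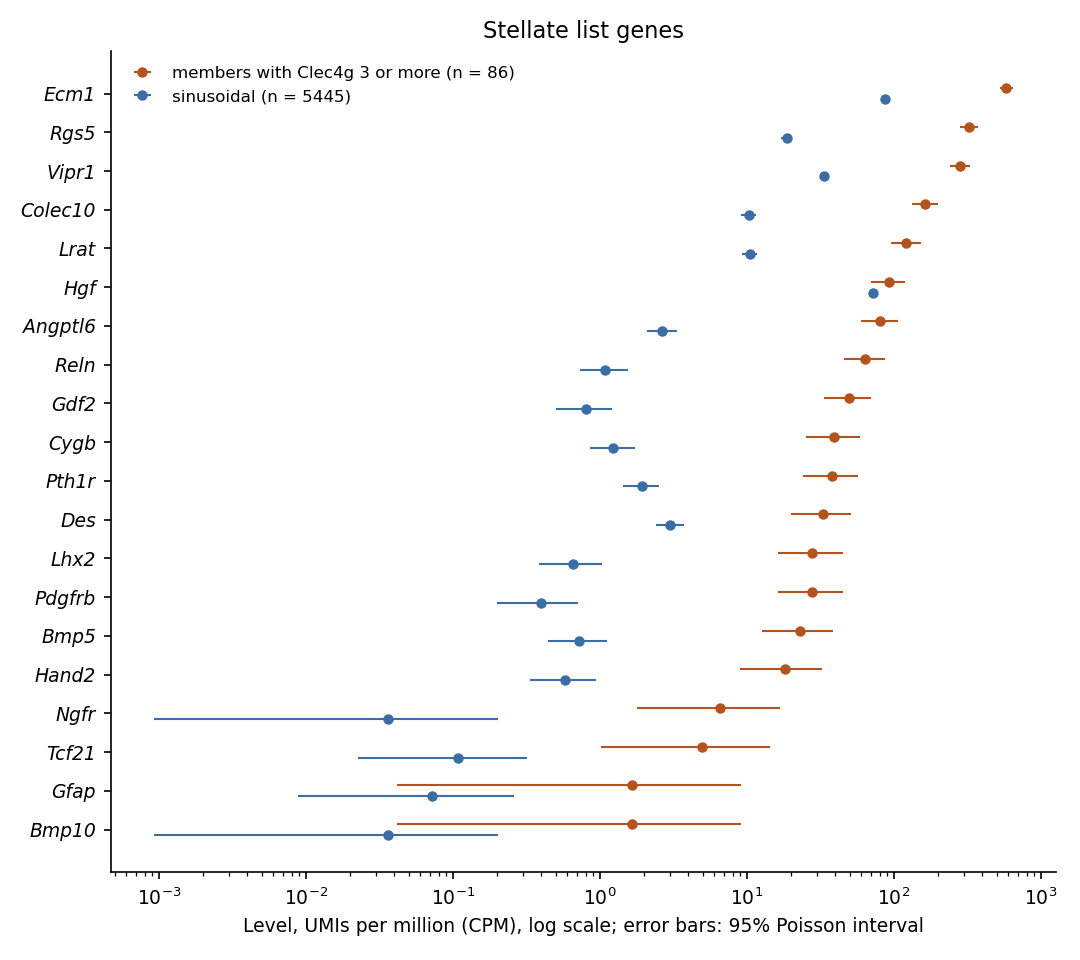
Level in CPM on a log axis of 20 stellate list genes in the 86 stellate-marked droplets (brown) and the 5445 sinusoidal droplets (blue), with 95% Poisson intervals. Every brown point lies to the right of its blue point, by 6.72-fold for Ecm1 and 1.29-fold for Hgf, and the sparsest genes, such as Gfap and Bmp10 with 1 UMI each, have the widest intervals.

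Of the measured genes outside the rule, 15 with the highest ratios are named next. On the log2 scale they were Cxcl12 at 4.99, Col14a1 at 4.97, Reln at 4.96, Sod3 at 4.88, Fcna at 4.80, Tgfbi at 4.77 and Steap4 at 4.54, followed by Angptl6, Tmem56, Rarres2, Rgs5, Colec10, Ramp1 and Lrat between 4.48 and 3.42. Cxcl12, a chemokine of stromal niches, gave 135 UMIs in 58 stellate-marked droplets and 222 CPM (186 to 263), against 6.03 CPM (5.15 to 7.03) in sinusoidal droplets. Col14a1, a collagen that binds to fibrils, gave 82 UMIs in 45 stellate-marked droplets and 135 CPM (107 to 167) against 3.34 CPM (2.70 to 4.10) in sinusoidal droplets. Fcna, the lectin ficolin A, was at 115 CPM (89.8 to 145) against 3.16 CPM (2.53 to 3.90) in sinusoidal droplets, and Sod3, the extracellular superoxide dismutase, at 87.2 CPM (65.3 to 114), a ratio of 43.6 (29.3 to 64.8). The last of the 15, Igfbp5 with a log2 ratio of 3.41, rested on 102 UMIs in 2 droplets, 99 of them in 1 that also held 24 Vwf UMIs.

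The 6 measured genes called lower were Spp1 at -5.81, Clu at -2.84, Cp at -2.02, Ufl1 at -1.27, Icam1 at -1.22 and Cxcl10 at -1.08 on the log2 scale. Spp1, Clu and Cp are made by bile duct epithelium and hepatocytes. The members had an upper limit on keratin and Epcam UMIs that the sinusoidal droplets did not have, and 50 sinusoidal droplets above that limit held 97.9% of the sinusoidal Spp1 UMIs, 92.0% of Clu and 97.1% of Cp. When droplets with 20 or more hepatocyte list UMIs were left out of both groups, Clu and Cp were higher in the possible mixtures, with log2 ratios of 0.41 and 1.69. Icam1, a leukocyte adhesion molecule, was at 21.4 CPM (11.4 to 36.6) in stellate-marked droplets against 51.1 CPM (48.5 to 53.9) in sinusoidal droplets. Cxcl10, an interferon-induced chemokine, was at 37.8 CPM (24.0 to 56.8) against 81.3 CPM (78.0 to 84.8) in sinusoidal droplets.

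Fibroblast, mesothelial and activation genes did not follow the stellate genes. The 15 fibroblast genes summed to 37.8 CPM (24.0 to 56.8) in stellate-marked droplets against 38.1 CPM (35.9 to 40.5) in sinusoidal droplets, and 7 of them, Thy1, Gli1, Mfap4, Mfap5, Fbln1, Dpt and Col15a1, had no UMI in the 86. A count of 0 there allows up to 3 UMIs among 607943. The mesothelial list was at 4.93 CPM in stellate-marked droplets against 72.0 CPM in sinusoidal droplets, with 12 of its 13 genes at 0 in the 86, a level the split at 3 mesothelial UMIs capped. The keratins Krt8 and Krt18 of that list lay almost wholly in the same 50 duct-marked sinusoidal droplets (95.7% and 96.2% of their sinusoidal UMIs). The activation list was at 1041 CPM (962 to 1126) against 930 CPM (919 to 942) in sinusoidal droplets, with 0 of 4 measured genes 2-fold apart, and Timp1 and Lox, genes known from stellate cell activation, were at 0 UMIs. In these 86 droplets the stellate part of the working name rests on the stellate list, and the fibroblast part found no counterpart in the fibroblast list.

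Shared matrix genes were mixed. Of the 15 in that list 4 were measured, and 1 of these, Col14a1, was higher. Sparc, which encodes osteonectin, and Bgn, which encodes the proteoglycan biglycan, are also made by endothelium, and were at 2058 and 688 CPM in stellate-marked droplets against 1808 and 419 CPM in sinusoidal droplets. Col1a2 and Lum, a collagen chain and the proteoglycan lumican, gave 12 UMIs each, with ratios of 33.9 (14.7 to 76.5) and 41.8 (17.4 to 99.3). Col1a1 was at 0 UMIs in the 86 and at 0.145 CPM in sinusoidal droplets, too sparse for a ratio. The smooth muscle and pericyte list was at 150 CPM (121 to 184) in stellate-marked droplets against 23.5 CPM (21.7 to 25.4) in sinusoidal droplets, with 6 of 13 genes at 0. Abcc9, a subunit of a potassium channel of pericytes, was the 1 measured gene, at 72.4 CPM against 13.6 CPM in sinusoidal droplets, whereas Acta2, smooth muscle actin, gave 1 UMI.

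Among ligands, receptors and complement genes the higher members were few. Cxcl12 was the 1 of 4 measured secreted ligands called higher, while Tgfb1 was at 255 CPM in stellate-marked droplets against 241 CPM in sinusoidal droplets and Rspo3, a Wnt agonist of central vein endothelium, at 74.0 CPM against 103 CPM in sinusoidal droplets, a ratio of 0.720 (0.524 to 0.966). Vipr1 and Ednrb were the 2 of 5 measured receptors called higher. Ednrb, an endothelin receptor that sinusoidal endothelium also makes, was at 340 CPM (296 to 390) against 167 CPM (162 to 172) in sinusoidal droplets. Colec10 and Fcna were the 2 of 5 measured lectin and complement genes called higher, and Masp1, a protease that collectins and ficolins activate, was at 288 CPM (247 to 334) against 271 CPM (264 to 277) in sinusoidal droplets.

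The sinusoidal programme of the same 86 droplets was close to that of sinusoidal droplets. Their 14 LSEC genes summed to 19559 CPM (19209 to 19914) against 20553 CPM (20500 to 20607) in sinusoidal droplets, a ratio of 0.952 (0.934 to 0.969), and 0 of 14 were 2-fold apart in either direction. Stab2, a scavenger receptor for hyaluronan, was at 1242 CPM (1155 to 1334) against 1333 CPM (1320 to 1347) in sinusoidal droplets, and Clec4g, used by the rule, at 3560 CPM against 3746 CPM in sinusoidal droplets. Pecam1, the gene of the sorted surface protein, was at 757 CPM (689 to 829) against 713 CPM (703 to 723) in sinusoidal droplets. Lists added after the data were seen gave 980 CPM against 1146 CPM in sinusoidal droplets for central-side and 1551 CPM against 1607 CPM in sinusoidal droplets for portal-side sinusoidal genes. Over all genes, 3919 of 4020 measured were within 1.5-fold.

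Depth differed between the groups, with a median of 6022 UMIs in stellate-marked droplets against 4554 in sinusoidal droplets. After each droplet was thinned to 2000 UMIs, which left out 162 sinusoidal droplets, Ecm1 was found in 58.1% of stellate-marked droplets (47.0 to 68.7) against 16.2% of sinusoidal droplets (15.2 to 17.2). Unthinned, the shares were 80.2% of stellate-marked and 33.5% of sinusoidal droplets. Thinned shares for Rgs5 were 40.7% (30.2 to 51.8) against 3.12% (2.67 to 3.63) of sinusoidal droplets, for Cxcl12 39.5% (29.2 to 50.7) against 1.003% (0.752 to 1.31) of sinusoidal droplets, and for Reln 16.3% (9.20 to 25.8) against 0.208% (0.104 to 0.372) of sinusoidal droplets. Stab2 was found in 86.0% (76.9 to 92.6) against 89.5% (88.7 to 90.3) of sinusoidal droplets. At least 5 of the 21 stellate genes were detected together in 61 of 86 stellate-marked droplets (70.9%, unthinned), against 45 of 5445 sinusoidal droplets (0.826%).

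Stellate genes were higher where more rule UMIs were counted, a description since both were counted in the same droplets. The 86 droplets split into 58 with 5 to 9, 16 with 10 to 19 and 12 with at least 20 rule UMIs, with median depths of 5941, 6437.5 and 6389 UMIs. The stellate list was at 1513 CPM (1397 to 1635) in the first, 2601 CPM (2308 to 2919) in the second and 4751 CPM (4281 to 5258) in the third, against 279 CPM in sinusoidal droplets. Ecm1 stood at 303, 897 and 1643 CPM in that order, and Rgs5 at 243, 362 and 713 CPM. The LSEC list was at 20142, 19681 and 16277 CPM, against 20553 CPM in sinusoidal droplets. Clec4g had no such order, with 3367, 4367 and 3452 CPM. Ecm1, Rgs5, Cxcl12, Reln, Col14a1, Vipr1, Colec10 and Lrat all had their highest level in the third stratum. Between 10 to 19 and 20 or more rule UMIs the intervals overlapped for Reln, Col14a1, Vipr1, Colec10 and Lrat, and did not for Ecm1, Rgs5 and Cxcl12.

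**Figure D2:**
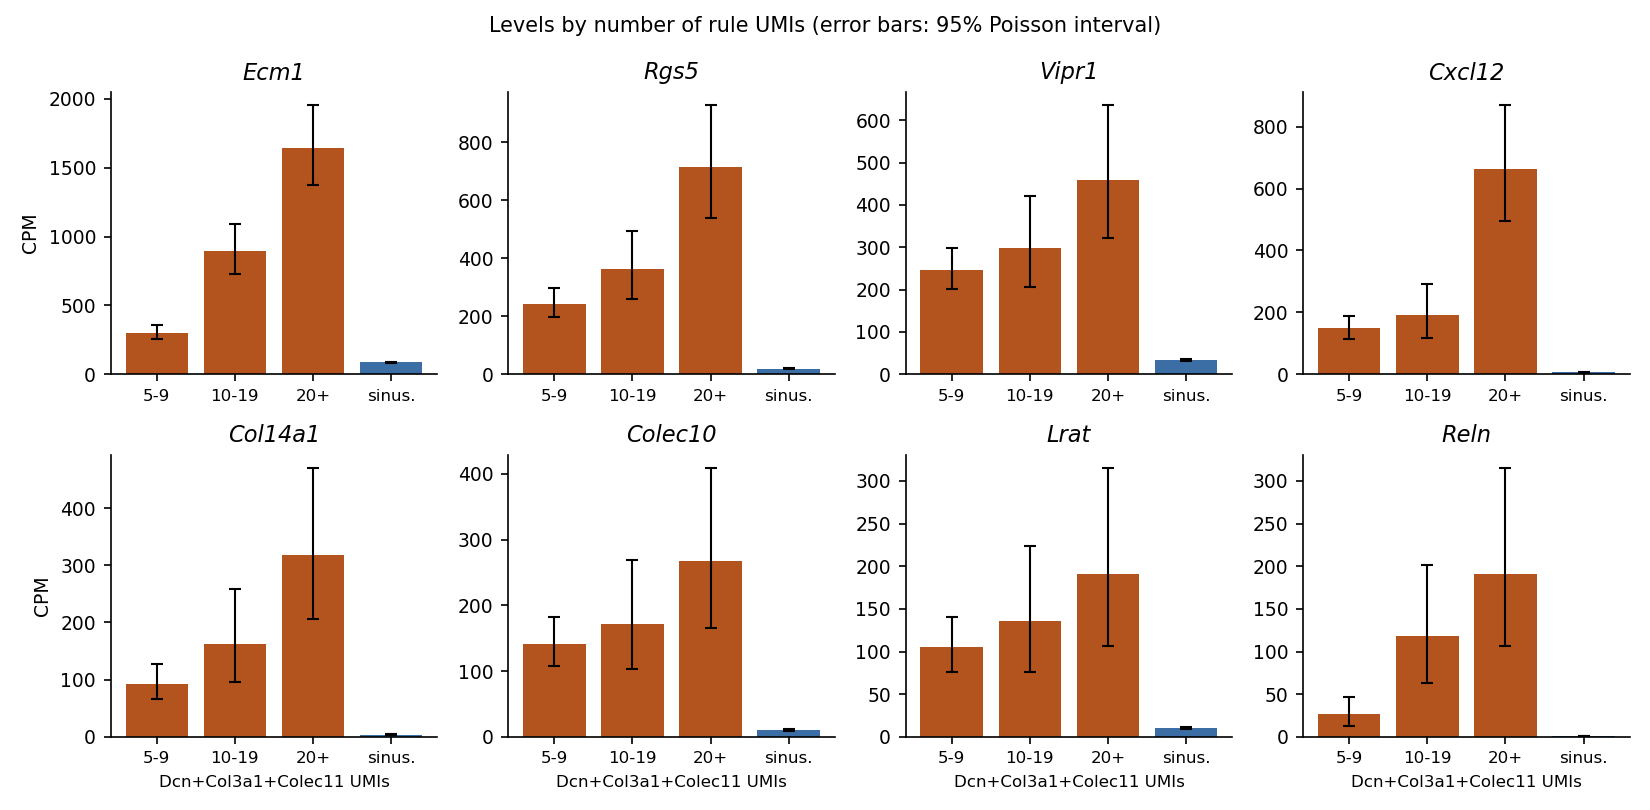
Level in CPM of 8 stellate-associated genes in stellate-marked droplets with 5 to 9 (n = 58), 10 to 19 (n = 16) and at least 20 rule UMIs (n = 12), and in 5445 sinusoidal droplets, with 95% Poisson intervals. Each gene is highest at 20 or more rule UMIs, for example Cxcl12 at 148, 190 and 662 CPM in the 3 strata and 6.03 CPM in sinusoidal droplets.

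Droplets of all strata varied widely. Stellate list UMIs per 1000 UMIs had a median of 1.47 at 5 to 9, 3.01 at 10 to 19 and 5.39 at 20 or more rule UMIs, against 0.220 in sinusoidal droplets, and reached 23.9 in 1 stellate-marked droplet. The highest sinusoidal droplet had 2.62 per 1000, and 28 of 86 stellate-marked droplets (32.6%) lay above it, so most of them overlapped with the sinusoidal range. The median LSEC list level per droplet was 21.5, 19.5 and 14.9 per 1000 in the strata, against 21.3 in sinusoidal droplets. When each of the 90 members was given to whichever of the stellate, fibroblast, smooth muscle and mesothelial lists had most UMIs in it, with at least 3, 82 were led by the stellate list (91.1%), 2 by the mesothelial, 1 by the fibroblast and 0 by the smooth muscle list. A further member was tied and 4 had too few UMIs. Of the 5445 sinusoidal droplets, 951 were led by the stellate list (17.5%), 96 by the fibroblast, 54 by the mesothelial and 18 by the smooth muscle list, and 4316 had too few UMIs (79.3%). Among droplets that reached 3 UMIs in a list, the stellate list led in 82 of 86 members (95.3%) and in 951 of 1129 sinusoidal droplets (84.2%), so it was the usual leader on both sides. These are ranges of counts and no cell types.

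**Figure D3:**
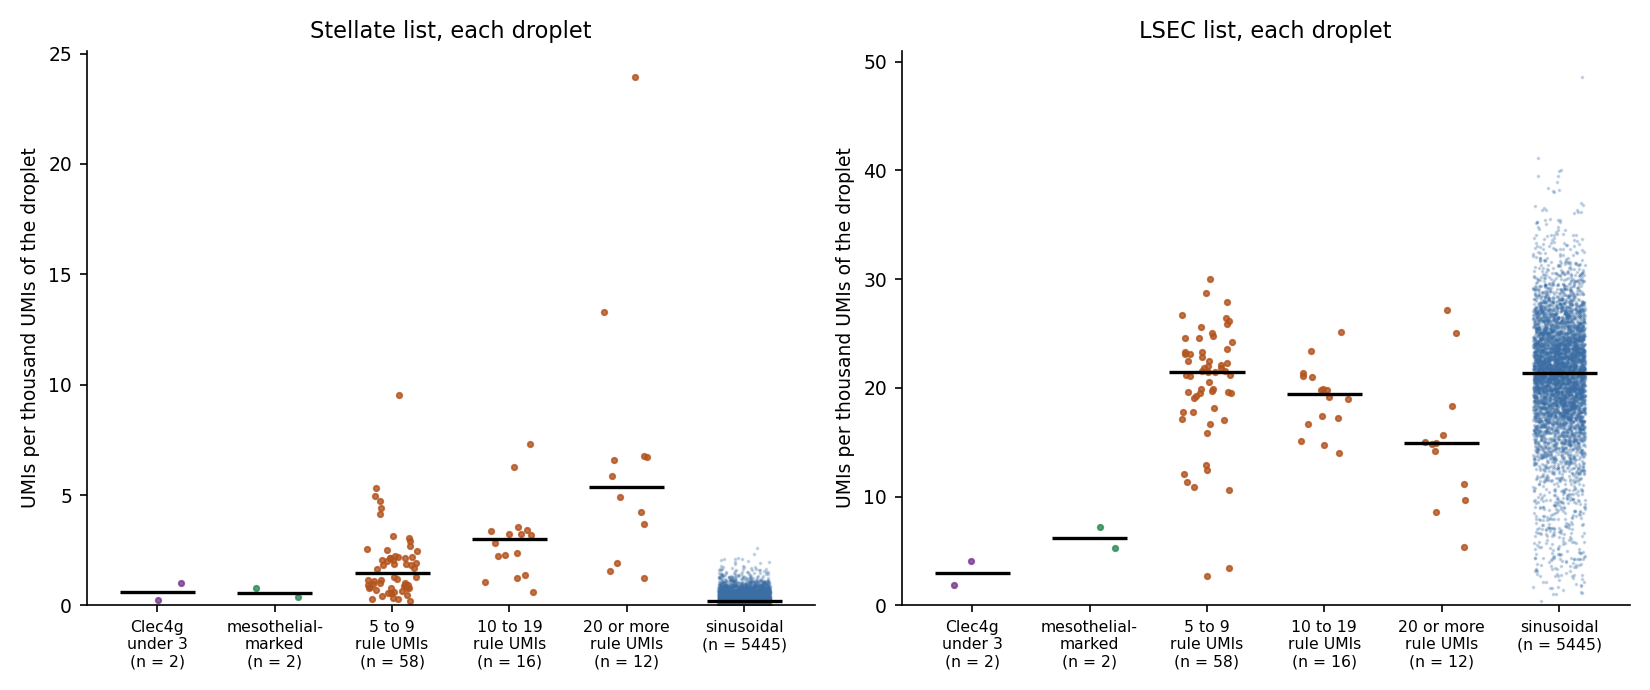
UMIs of the stellate list (left) and LSEC list (right) per 1000 UMIs in each droplet, for members with Clec4g under 3, mesothelial-marked members, stellate-marked droplets by number of rule UMIs, and sinusoidal droplets, with the median as a bar. The stellate medians are 1.47, 3.01 and 5.39 in the 3 strata and 0.220 in sinusoidal droplets, while the LSEC medians of 21.5, 19.5 and 14.9 stay near the sinusoidal 21.3 except in the third.

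In 2 stellate-marked droplets, singled out after their values were seen, UMIs of the stellate list, which holds no rule gene, outnumbered those of the LSEC list, as in 0 of 5445 sinusoidal droplets. The first held 2783 UMIs, with 45 of Dcn, 8 of Colec11, 20 of Ecm1, 3 of Reln and 37 of the stellate list, beside 8 of Clec4g, 1 of Stab2, 1 of Pecam1 and 31 of the LSEC list. The second held 2089 UMIs, with 23 of Dcn, 6 of Colec11, 16 of Ecm1, 9 of Rgs5 and 50 of the stellate list, beside 3 of Clec4g and 18 of the LSEC list. Both were shallow for members, and mt- genes took 9.31% and 12.4% of their UMIs, against a median of 5.74% in the 86. The other copy of each carried 46 and 22 Dcn UMIs. Another 2 stellate-marked droplets lay below the 1st percentile of the sinusoidal LSEC level, and these had only 2 and 4 stellate list UMIs, but 24 and 6 UMIs of Vwf, the von Willebrand factor of large-vessel endothelium.

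Transcripts of other liver cells were also counted in the 86 stellate-marked droplets. The hepatocyte list was at 658 CPM (595 to 726) against 290 CPM (284 to 296) in sinusoidal droplets, and 1 stellate-marked droplet held 300 of the 400 hepatocyte UMIs (75%). Of the 7977 hepatocyte UMIs in sinusoidal droplets, 4899 (61.4%) lay in 65 droplets with 20 or more each. Without such droplets on both sides, the list was at 170 CPM (138 to 207) in 85 stellate-marked droplets against 115 CPM (111 to 120) in 5380 sinusoidal droplets, and the list's median log2 ratio in the possible mixtures was 0.43. With the stellate-marked droplet alone left out and the sinusoidal ones kept, that median was -0.52. The continuous vascular list was at 1933 CPM against 1450 CPM in sinusoidal droplets, with Vwf at 125 CPM from 76 UMIs in 7 droplets. The 2 stellate-marked droplets with most of the list, chosen after their values were seen, held 368 of its UMIs, and the other 84 were at 1370 CPM (1277 to 1468), an interval that includes the sinusoidal level. Pan-endothelial genes were at 16900 CPM against 17878 CPM in sinusoidal droplets, lymphatic genes at 758 CPM against 811 CPM in sinusoidal droplets, and Kupffer cell genes at 49.3 CPM against 49.4 CPM in sinusoidal droplets. Bile duct genes were at 6.58 CPM against 297 CPM in sinusoidal droplets. The limit on keratin and Epcam UMIs held for the members alone. The 50 sinusoidal droplets above it had 97.9% of the sinusoidal UMIs of Spp1, a gene of that list. Leukocyte genes were at 1.64 CPM against 5.38 CPM in sinusoidal droplets, haemoglobin and erythroid genes at 1.64 CPM against 0.218 CPM in sinusoidal droplets, and Schwann cell genes at 1.64 CPM against 2.22 CPM in sinusoidal droplets. Cycling genes were at 16.4 CPM (7.89 to 30.3) against 166 CPM (161 to 171) in sinusoidal droplets, where they had a median of 0 and a maximum of 149 UMIs per droplet. Of 90 members 0 held 5 or more cycling UMIs (0%, 0 to 4.02), an interval that includes the share of sinusoidal droplets, 73 of 5445 (1.34%). Scrublet, which scores resemblance to simulated doublets, marked 7 of 88 possible mixtures (7.95%, 3.26 to 15.7) against 342 of 5445 sinusoidal droplets (6.28%, 5.65 to 6.96). Whether the stellate transcripts and the sinusoidal transcripts of a droplet came from 1 cell, from attached cells or from free RNA was not tested.

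The 2 mesothelial-marked droplets carried other stromal genes than the 86. They held 110 and 67 UMIs of Dcn and 38 and 30 of Col3a1, but none of Colec11, in 8909 and 7909 UMIs. Upk3b, a uroplakin of mesothelium, gave 8 and 5 UMIs, Nkain4 gave 12 and 11, Lrrn4 gave 9 and 8, and Wt1, a transcription factor of mesothelium, 1 and 3. Their mesothelial list was at 5411 CPM (4356 to 6643) and their fibroblast list at 2616 CPM (1901 to 3512), while the stellate list gave 7 and 3 UMIs. Of all UMIs in the 88 possible mixtures, these 2 droplets held 100% of Col1a1 and Igfbp6, 94.4% of C3, 92.5% of S100a6, 73.1% of Col3a1 and 19.8% of Dcn. Their Clec4g counts were 6 and 7, and their LSEC list, at 6184 CPM (5053 to 7493), lay below that of the 86. Set beside the sinusoidal droplets, all 88 possible mixtures had 44 genes at least 2-fold higher, 1.1% of those measured, and the 86 had 37. With no minimum level 1021 genes (6.04%) were higher and 968 (5.73%) lower in the 88.

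Only 2 members had fewer than 3 Clec4g UMIs, and they held few stellate list UMIs. They carried 5 Col3a1 UMIs each and none of Dcn or Colec11, in 8573 and 7829 UMIs, so they met the rule at its lowest value through 1 gene. The other copy of the first held 4 Col3a1 UMIs and missed the rule, and that of the second held 11. They held no Reln and 2 Ecm1 UMIs each, and 19 of the 21 stellate genes were at 0. From 10 UMIs, the pair's stellate list was at 610 CPM (292 to 1121) against 279 CPM (273 to 285) in sinusoidal droplets, a ratio of 2.18 (1.05 to 4.02), with 2 of 3 measured genes at least 2-fold higher and 1 lower. They also carried endothelial genes outside the sinusoidal programme. Pecam1 gave 26 and 11 UMIs, Vwf 17 and 22, Cd34, a sialomucin of continuous vessels, 9 and 4, and Nts, which encodes the peptide neurotensin, 84 and 16. Igfbp5, an insulin-like growth factor-binding protein, gave 159 and 23, Mgp, the matrix Gla protein that limits calcification, 8 and 29, and Igfbp6 0 and 17. A stellate-marked droplet, marked by Scrublet, also met the rule through 5 Col3a1 UMIs alone, with no Dcn, Colec11, Ecm1 or Reln. It held 28 UMIs of Vwf, 5 of Nts and 11 of Mgp, beside 44 of Clec4g and 11 of the stellate list.

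Against sinusoidal droplets the pair had 2022 of 5782 measured genes at least 2-fold higher (35%) and 1450 lower (25.1%), counts that a total of 16402 UMIs makes large, since 1 UMI in the pair equals a level above 50 CPM. Against the possible mixtures 2037 of 5767 (35.3%) were higher and 1437 (24.9%) lower. With no minimum level the pair had 2022 genes higher than sinusoidal droplets (12%) and 7385 lower (43.9%), and 2037 genes higher than the possible mixtures (16.9%) and 7740 lower (64.1%). The highest log2 ratios over sinusoidal droplets were Nts at 9.74, Igfbp6 at 9.65, Igfbp5 at 9.45, Cpe at 9.09, Inhba at 8.94, Tppp3 at 8.72, Cst6 at 8.69 and Mgp at 8.64. Fxyd6, Pdlim4, Fhl1, Fndc1 and S100a6 followed between 8.34 and 8.03. Pthlh, the parathyroid hormone-like hormone, and Meox2, a homeobox factor of endothelium, gave 5 and 4 UMIs in the pair and none in the sinusoidal droplets. Inhba, Tppp3, Cst6, Pthlh and S100a6 came from 1 of the pair, which also held all 63 hepatocyte list UMIs.

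The lowest genes in the pair were at 0 UMIs, so their ratios are lower bounds from 3 UMIs over both droplets. Dnase1l3, a secreted DNase of LSECs, was at least 16.9-fold lower than its 3085 CPM in sinusoidal droplets. Fcgr2b, the LSEC receptor for immune complexes, was at least 12.3-fold lower, Bmp2 at least 10.98-fold, Stab2 at least 7.29-fold and Oit3 at least 6.11-fold. Cldn5, Ly6a and Timp3 were at least 5.98-fold, 5.96-fold and 5.77-fold lower. The LSEC list of the pair summed to 2926 CPM (2158 to 3880), with 10 of 14 measured genes called lower and 1 higher. The continuous vascular list, at 4451 CPM (3489 to 5596), had 6 of 8 measured genes called higher and 2 lower. The fibroblast list, at 1463 CPM (938 to 2177), had 11 of its 15 genes at 0 UMIs and 4 of 4 measured genes called higher. Those 4 were measured through the pair alone, since the whole list summed to 38.1 CPM in sinusoidal droplets, so none could be called lower. Fbln2 gave 10 of the 16 list UMIs in the first droplet and 7 of the 8 in the second. Over all measured genes 35% were called higher and 25.1% lower.

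**Figure D4:**
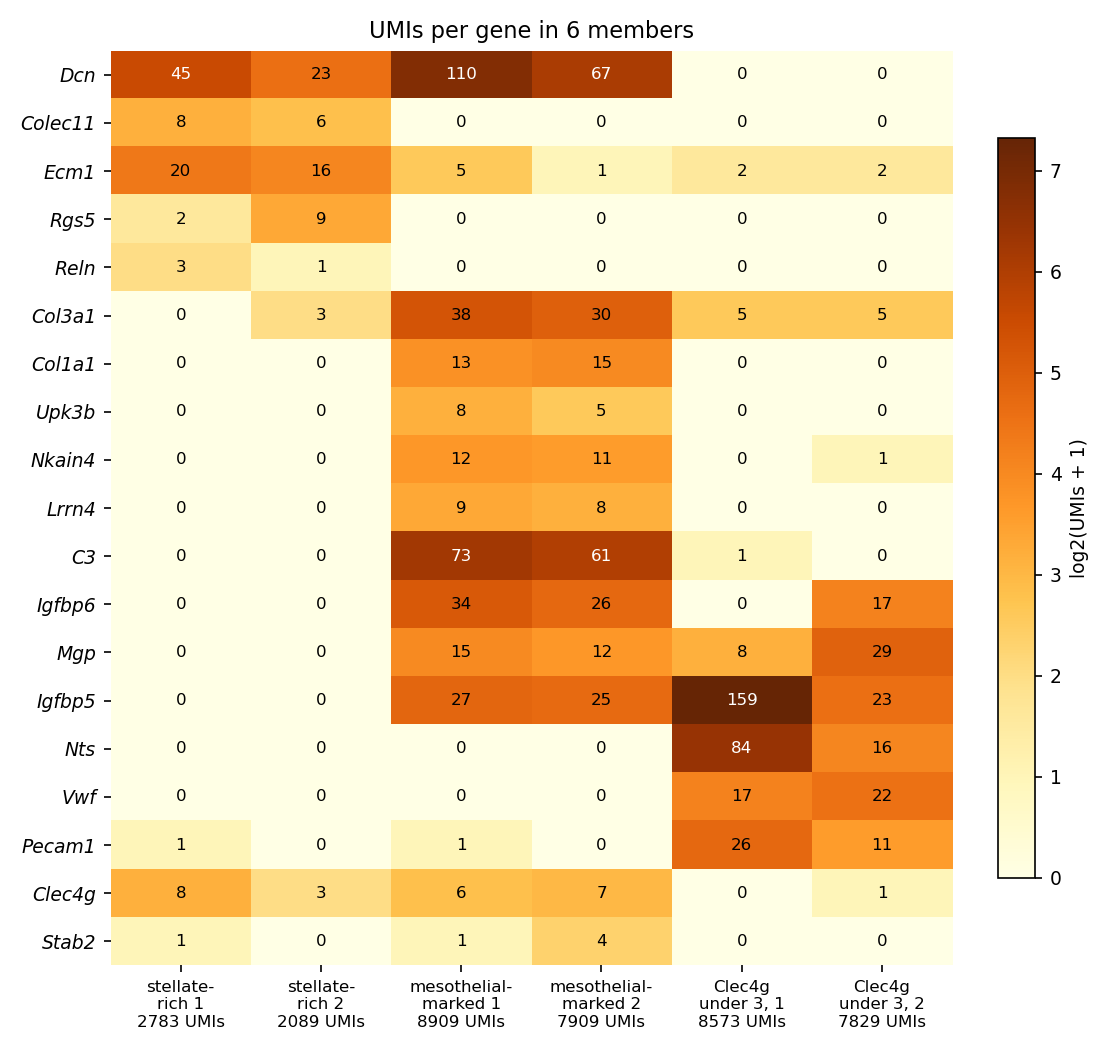
UMIs of 19 genes (rows) in 6 members (columns), the 2 stellate-rich droplets, the 2 mesothelial-marked droplets and the 2 members with Clec4g under 3, with colour on a log2(UMIs + 1) scale and the count in each cell. Ecm1 is highest in the first pair, with 20 and 16 UMIs, Dcn, Col1a1, Upk3b and C3 in the second, with 110 and 67 Dcn UMIs, and Nts, Vwf and Pecam1 in the third.

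The same rule applied to the sph/sph library took 303 of 6638 passing droplets (4.56%, 4.08 to 5.09), of which 2 had at least 3 Clec4g UMIs. These sph/sph droplets shared Dcn and Reln with the sph/+ possible mixtures but few other stellate genes. Dcn was at 2767 CPM (2711 to 2824) in sph/sph against 1434 CPM (1342 to 1531) in the 88 sph/+ possible mixtures, and Reln at 233 CPM (217 to 250) against 62.4 CPM (44.4 to 85.3) in sph/+. Ecm1 was at 15.5 CPM in sph/sph against 578 CPM in sph/+, Vipr1 gave 1 UMI in sph/sph against 172 in sph/+, and Lrat, Lhx2 and Hand2 gave none in sph/sph against 74, 17 and 11 in sph/+. The lymphatic genes Prox1 and Mmrn1 were at 431 and 945 CPM in the sph/sph droplets and at 0 UMIs in the sph/+ possible mixtures. The stellate list was at 581 CPM in sph/sph against 2087 CPM in sph/+, and the lymphatic list at 3630 CPM in sph/sph against 760 CPM in sph/+. Clec4g reached 3 UMIs in 3.16% of all passing sph/sph droplets against 97.0% of sph/+ ones, and the median depth of the rule droplets was 10299 UMIs in sph/sph against 6041.5 in sph/+. Genotype, mouse and library cannot be told apart here.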

How the data were processed

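UMI counts per gene and barcode, as deposited by the authors, were analysed without normalization over 31053 genes. The build mm10 and Cell Ranger 3.0 are named per the submitters' processing notes, and software version 3.1.0 is named per the file headers. Which gene annotation was used is not given in the sources used here.

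Members were chosen by the rule given above, and the members and the gene lists were chosen with earlier results of these data known. Where a barcode sequence was deposited under both suffixes 1 copy was kept, in the order member, sinusoidal, other passing, then the copy with more UMIs, so membership needs only 1 copy to meet the rule. Counts were summed per group and scaled to CPM. A gene was measured from 50 CPM in either group, and called at 2-fold after 1 CPM was added. Intervals are 95% exact Poisson for levels, Clopper-Pearson for shares and the exact binomial of the pooled count for ratios. A count of 0 was given a limit of 3 counts. Calls were first checked on simulated data.

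Named genes were the 15 measured genes with the highest and 8 with the lowest ratio of low-Clec4g members over sinusoidal droplets, all genes of the stellate, fibroblast, matrix, mesothelial and smooth muscle lists, up to 4 from each other list, and the rule genes. Left out of the ranking were the rule genes, unnamed and sex-linked genes, and those of mitochondria, ribosomes, haemoglobin and immunoglobulins. Applying the same rule to the possible mixtures, the central-side and portal-side lists, the handling of copies, a set of sinusoidal droplets of like depth and runs without members, or without any droplets, with at least 20 hepatocyte UMIs were added after the data were seen. Other genes named in single droplets, and the keratin share of Spp1, Clu and Cp, were also chosen then. Scrublet (scanpy 1.11.5) scored doublets, with 5.40% expected. Its own threshold marked 0.0161% of droplets, so the highest scores were marked instead, 6.55% with ties. Marked droplets were kept. Shares were taken after thinning each droplet to 2000 UMIs. Passing sph/+ droplets held 32117564 UMIs, the 86 stellate-marked 607943 and the sinusoidal ones 27509962. Python 3.11.15, numpy 2.4.6, scipy 1.17.1, pandas 2.3.3 and matplotlib 3.10.9 were used. Of the promoters, all 3 genes sought matched the RefSeq table by symbol. Some list members are not reported here by name.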

Additional observations from a re-analysis of the deposited data

Results flagged for a closer look

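Droplets outside the members also carried the rule genes. In the sph/+ library 8 passing droplets held at least 5 UMIs of Dcn, Col3a1 and Colec11 but were left out by the limit on keratin and Epcam UMIs, and 4 of these 8 had at least 3 Clec4g UMIs. A further 14 droplets with at least 5 such UMIs were left out by the limits on genes, UMIs or mt- share, 13 of them for an mt- share over 15%. Both sets were picked by their rule UMIs, and they are neither members nor sinusoidal droplets as defined above. They are given as counts, and their part in the results was not tested.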

How the results depend on the processing

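No paired analysis was possible because each genotype has 1 library. The 2-fold calls and the number of members depended on thresholds, while the direction of the stellate list's median in possible mixtures did not change under any setting run. With at least 10 rule UMIs there were 30 members, all 30 possible mixtures and 0 with low Clec4g, and 111 genes higher and 85 lower over sinusoidal droplets, against 44 and 6. With at least 20 there were 14, 14 and 0, with 423 higher and 330 lower. Measured from 20 CPM, mixtures had 131 higher and 55 lower, and the low-Clec4g pair 3216 lower than sinusoidal droplets and 3206 lower than mixtures. With no minimum these counts were 1021, 968, 7385 and 7740. With 10 CPM added, 3 genes were lower. Against every other passing droplet 10 were lower. The stellate list's median log2 ratio in mixtures, 3.56, was 1.84 with 10 CPM added, 3.35 with an mt- limit of 10%, 3.54 with mixtures from 1 Clec4g UMI and 3.37 against every other passing droplet. Low-Clec4g members numbered 1 with mixtures from 1 Clec4g UMI, without mesothelial-marked members, without hepatocyte-rich members or droplets, and from suffix 2 copies alone. Counting both copies gave 155 members and 152 mixtures.

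Directions reversed as follows, on the log2 scale. In mixtures the hepatocyte list's median was -0.70 at 10 rule UMIs, -0.42 at 20 and -0.52 without hepatocyte-rich members, with the hepatocyte-rich sinusoidal droplets kept. Without such droplets in either group it was 0.43, the direction with all droplets, while Cp was 1.69 and Clu 0.41. Bmp10 was -0.052 at 10 and at 20 rule UMIs. Cp was 0.0012 at 20 and 0.089 with droplets weighted equally, and Gfap was -0.11 with an mt- limit of 10%. Without mesothelial-marked members the mesothelial list's median was -0.052 and Igfbp6 -0.37. In the low-Clec4g pair Igfbp6 was -0.37 without mesothelial-marked members and with mixtures from 1 Clec4g UMI. Without hepatocyte-rich members the pair, then 1 droplet, had the hepatocyte list at -3.47, S100a6 at -0.90, Tppp3 at -1.38, Inhba at -1.32, Cst6 at -0.052 and Pthlh at 0. With hepatocyte-rich sinusoidal droplets also left out these were -3.24, -0.84, -1.36, -0.74, -0.053 and 0. From suffix 2 copies alone these were -3.48, -0.88, -1.43, -1.32, -0.054 and 0. These settings leave out 1 of the 2 droplets, so the pair's values rest on single droplets. For the other reversals the cause was not tested. Depth limits what can be said of genes with under about 10 UMIs in the 86.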
